A study of Mus musculus with 24 samples.

Results

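The genes described here encode 8 small leucine-rich proteoglycans (Dcn, Bgn, Aspn, Lum, Fmod, Prelp, Ogn and Podn) and the large proteoglycan versican (Vcan). They were chosen by name, and all 9 were found among the 14912 genes of the deposited table. RNA of the left ventricle was measured in 12 mice infused with ANG II (the hypertensive-LVH group) and 12 mice infused with saline (the control group). All were male wild-type C57BL/6J mice, the pumps lay under the skin for 7 days, and the dose of ANG II, a peptide hormone that raises blood pressure, was 1500 ng/kg/min. The heart was flushed with saline before the ventricle was taken, and the ages of the mice are not given in the sources used here. Each sample was bulk tissue, so that fewer cells of a type and less RNA per cell cannot be told apart.

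Small leucine-rich proteoglycans are secreted proteins whose core of leucine-rich repeats binds collagen fibrils and controls their width and spacing. Several of them carry chains of chondroitin, dermatan or keratan sulfate, and some bind growth factors such as TGF-β. Versican is a much larger proteoglycan with many chondroitin sulfate chains that binds hyaluronan and keeps the matrix loose and hydrated. In the heart these genes are expressed mainly by fibroblasts and other mesenchymal cells, and they belong to the matrix laid down in remodelling and fibrosis.

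Biglycan (Bgn), lumican (Lum) and asporin (Aspn) rose in the hypertensive-LVH group, and 3 of the 9 genes were therefore DEGs, against 5.92% of the 14026 genes tested in both directions and 4.52% in the direction of an increase. A DEG had an adjusted p under 0.05 and an absolute log2 fold change over 0.5, in limma on log2(FPKM + 1) with Benjamini-Hochberg adjustment over all tested genes. Versican also passed the adjusted p, with a fold change below that limit, which made 4 of 9 genes past the adjusted p, against 33.5% of all genes (20.9% higher). The mean difference on the log2 scale was above 0 for 9 of 9 genes, as it was for 63.8% of all genes. The median log2 fold change was 0.59 for the 9 genes and 0.05 for all genes. The levels of the 2 groups overlapped for each of the 9 genes, and 0.756% of all genes had groups that did not overlap. The plot of fold changes shows how much of this rested on few samples. Without samples 4 to 6 of each group the median of the 9 genes was 0.08, and biglycan was the only one of them that was a DEG (3.95% of all genes).

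**Figure D1:**
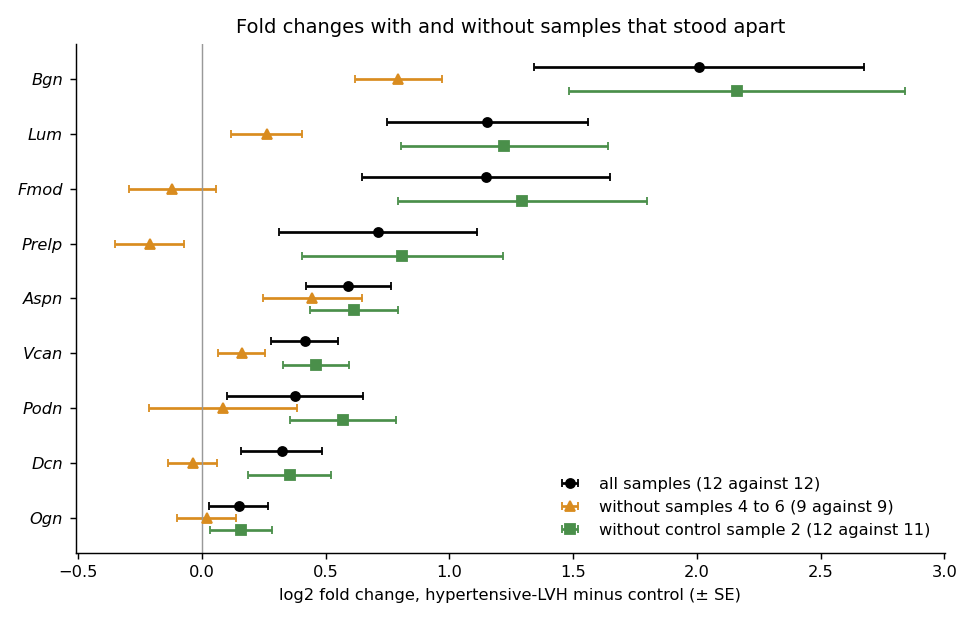
Each row is a gene and the horizontal axis is the limma log2 fold change of hypertensive-LVH against control on the log2(FPKM + 1) scale, with bars of 1 SE, for all samples, without samples 4 to 6 of each group, and without control sample 2. Bgn stayed at 0.79 without samples 4 to 6, whereas Dcn, Fmod and Prelp moved below 0.

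The deposited values are FPKM, fragments per kilobase of transcript scaled to the mapped fragments of a library, to which an adjustment had been applied in 4 sets of samples (1 to 3, 4 to 6, 7 to 9 and 10 to 12 of each group). This was read from exact ties between samples, and 0.766% of all values were negative. Among the values of the 9 genes, 3 of 216 were negative, for biglycan in control sample 4 and for fibromodulin in control samples 4 and 6, and these counted as 0 on the log2 scale. The offset that the adjustment gave each set could not be recovered and is part of every printed level. High or low levels of a set against the other sets therefore hold for the adjusted values only. Samples 4 to 6 stood apart in the difference between the groups. In that set every hypertensive-LVH sample lay above every control sample for 8 of the 9 genes, against 38.5% of all genes, whereas in each of the other sets this held for 1 gene of the 9 (6.97%, 10.2% and 10.0% of all genes). Taken alone, the 3 against 3 samples of that set made 8 of the 9 genes DEGs (19.3% of all genes). Samples 1 to 3, 7 to 9 and 10 to 12, each taken alone, made 0 of the 9 genes DEGs in limma (0.0%, 4.27% and 0.279% of all genes). In these fits 1, 2 and 1 of the 9 had an unadjusted p under 0.05 in either direction. Over all genes this held for 1236 of 14028, 2964 of 13988 and 1821 of 13973. Of the 2 in samples 7 to 9, Bgn was higher (1.11) and Prelp was lower (-0.34). The interaction of set and group in limma passed the adjusted p for 5 of the 9 genes (Fmod, Prelp, Lum, Dcn and Bgn), against 7.49% of all genes.

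**Figure D2:**
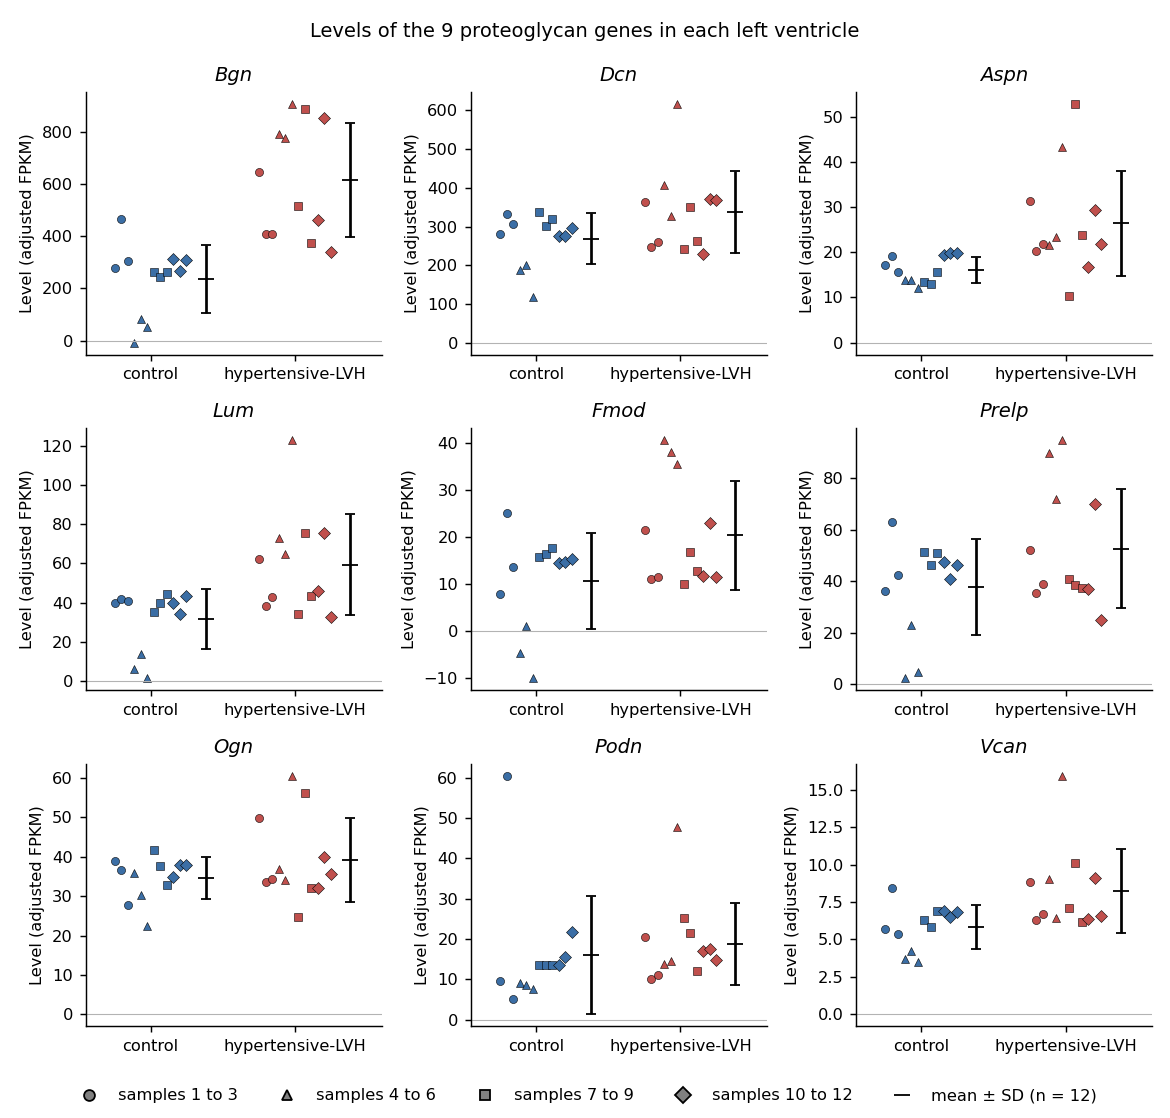
Each panel shows a gene, with its level in adjusted FPKM on the vertical axis, a point for each sample, marker shapes for the 4 sets and bars for the mean ± SD of the 12 samples of a group. Control samples 4 to 6 (triangles) lie lowest for Bgn, Dcn, Lum, Fmod, Prelp and Vcan, and control sample 2 lies highest of all samples for Podn. These positions between sets hold for the adjusted values only, since the set offsets could not be recovered.

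Summed markers of fibroblasts, mural cells, endothelial cells and macrophages were higher in the hypertensive-LVH samples of the set 4 to 6, as these genes were. The summed level of 6 fibroblast markers (Pdgfra, Tcf21, Ddr2, Dpt, Mfap5 and Pi16), with no mean at 0, was 164 to 442 FPKM in hypertensive-LVH samples against 52.1 to 220 FPKM in control samples. In samples 4 to 6 it was 315 to 442 against 52.1 to 73.1 FPKM, and in the other sets 164 to 315 against 152 to 220 FPKM. Between sets, this sum and those below hold for the adjusted values only, since the set offsets could not be recovered. Of these markers, Mfap5 and Pi16 were DEGs and both were higher. The sum of 6 cardiomyocyte markers (Myh6, Tnnt2, Tnni3, Actc1, Ryr2 and Pln), which were high in every sample of the labelled tissue, was 23786 to 32312 FPKM against 30610 to 36954 FPKM. In samples 4 to 6 that sum was 23786 to 25798 against 36183 to 36954. Of these, Tnni3 (-0.63) was a DEG that fell, and Actc1 (-0.30) and Pln (-0.32) passed the adjusted p and were lower without being DEGs. The sum of 6 mural markers (Myh11, Acta2, Tagln, Cnn1, Rgs5 and Kcnj8) was 264 to 449 against 199 to 360, and 378 to 449 against 199 to 282 in samples 4 to 6. Of these, Tagln (1.32) and Cnn1 (1.02) were DEGs that rose and Kcnj8 (-0.58) was a DEG that fell. The sum of 5 endothelial markers (Pecam1, Cdh5, Tie1, Tek and Egfl7) was 276 to 444 against 282 to 367, and 342 to 444 against 282 to 320 in samples 4 to 6. Of these, Pecam1 (0.37) alone passed the adjusted p, without being a DEG. The sum of 5 macrophage markers (Cd68, Csf1r, Adgre1, C1qa and Mrc1) was 117 to 336 against 86.9 to 175, and 187 to 336 against 86.9 to 101 in samples 4 to 6. All 5 passed the adjusted p and were higher, and Cd68 (0.92) and C1qa (0.65) were DEGs. The part of these markers in the results was not tested.

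Several of the genes lie in small clusters. Positions are from GENCODE vM21 (GRCm38), whose build need not be that of the authors, and all 9 are protein-coding. Dcn (chr10:97479609-97518143, plus strand) is followed by Lum (chr10:97565128-97572703, plus strand) after 47.0 kb. Prelp (chr1:133910304-133921414, minus strand) and Fmod (chr1:134037254-134048277, plus strand) point away from each other and are 116 kb apart. Aspn (chr13:49544443-49567565) and Ogn (chr13:49608046-49624501) lie on the plus strand with Omd, the gene of osteomodulin, between them. Vcan (chr13:89655312-89742509, minus strand), Podn (chr4:108014791-108096445, minus strand) and Bgn (chrX:73483602-73495933, plus strand) have no other of these genes next to them. Lum was a DEG and its neighbour Dcn was not, and Aspn was a DEG while Ogn was not. The difference between genes of a cluster was not tested.

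Promoter windows of RefSeq (GRCm38.p6, 250 bases before to 50 after a start) were held for 7 of the 9 genes, with none for Dcn and Lum. The 100 bases before the start are shown for the 3 genes past the adjusted p that had a window, with the letters of GC boxes (GGGCGG or its complement CCGCCC) in capitals.
Bgn, chrX:73483501-73483600, plus strand: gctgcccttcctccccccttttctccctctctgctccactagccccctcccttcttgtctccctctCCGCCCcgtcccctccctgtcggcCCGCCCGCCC
Vcan, chr13:89742513-89742612, minus strand: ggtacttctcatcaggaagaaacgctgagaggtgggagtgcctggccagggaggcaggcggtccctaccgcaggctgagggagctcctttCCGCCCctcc
Aspn, chr13:49544343-49544442, plus strand: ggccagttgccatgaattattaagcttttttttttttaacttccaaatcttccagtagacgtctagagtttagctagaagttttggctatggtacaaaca
GC boxes stand in the stretches of Bgn and Vcan, whereas that of Aspn is rich in A and T. The window of Bgn holds 3 GC boxes, at -34, -10 and -6 from the start, the last 2 overlapping, and that of Vcan holds them at -219 and -10. The window of Aspn has a GC content of 31.0% against a median of 52.7% over all 32851 windows and 63.7% for Bgn. GC boxes occur in 35.7% of all windows, and of these genes in Bgn, Podn and Vcan. The letters TATAAA occur in 13.6% of all windows, and of these genes in Aspn and Ogn. Neither the AP-1 letters TGANTCA (7.81% of all windows) nor the palindromic Smad letters GTCTAGAC (0.213%), both searched on both strands, are in any of the 7 windows.

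Biglycan carries chondroitin or dermatan sulfate chains, binds type I collagen and TGF-β, and in soluble form is a ligand of the receptors Tlr2 and Tlr4. Its level lay between 342 and 907 FPKM in hypertensive-LVH samples (median 581) and between -7.75 and 466 FPKM in control samples (median 266). All 12 hypertensive-LVH samples lay above the control median, 11 of 12 control samples lay below the lowest hypertensive-LVH sample, and control sample 2 alone bridged the groups. The means were 615 ± 219 and 237 ± 132 (SD, n = 12), a ratio of 2.60. The log2 fold change was 2.01 ± 0.67 (SE), with an adjusted p of 0.0231 in limma, a 95% interval of 0.64 to 3.38 and the rank 17 from the top among all 14026 fold changes. In adjusted values, the 3 control samples 4 to 6 had -7.75, 83.3 and 51.0, and the other 9 control samples lay between 243 and 466. The log2 fold change without this set was 0.79 ± 0.18 (adjusted p = 0.00398 in limma), with means of 544 ± 206 and 301 ± 66.4 (SD, n = 9). Leaving out control sample 4 alone gave 1.36 ± 0.29 (adjusted p = 0.00122, limma). Biglycan missed the threshold with a pseudocount of 0.1 (adjusted p = 0.0544, limma) and without samples 7 to 9 (0.0523), at log2 fold changes of 2.29 and 2.31.

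Decorin (Dcn), the closest relative of biglycan, binds collagen through its core protein and also binds TGF-β. Hypertensive-LVH samples lay between 229 and 616 FPKM (median 340), and control samples between 118 and 336 FPKM (median 287). The means were 337 ± 107 and 269 ± 66.5 (SD, n = 12), and the log2 fold change of 0.32 ± 0.16 did not pass the test (adjusted p = 0.126, 95% interval -0.01 to 0.66, limma). The 3 lowest control samples were again 4 to 6, at 187, 199 and 118. With that set left out, the means were 300 ± 61.7 and 302 ± 23.1 (SD, n = 9) and the log2 fold change was -0.04. The spread of the hypertensive-LVH samples remained wider on both sides. Of these, 4 of 9 lay above the highest control sample, whereas their median of 263 lay below the lowest control sample, at 276 (control median 303).

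The adjusted levels of these relatives are set side by side as a description. FPKM is per length, but the adjustment was made gene by gene and the offsets of the sets could not be recovered, so that an order or ratio of 2 genes holds for the adjusted values only. Biglycan exceeded decorin in 11 of 12 hypertensive-LVH samples and in 4 of 12 control samples. The ratio of biglycan to decorin had a median of 1.86 (from 0.930 to 2.53) in hypertensive-LVH samples and of 0.900 (from -0.042 to 1.41) in control samples, the lowest from the negative adjusted value of biglycan in control sample 4. With samples 4 to 6 left out, the medians were 1.77 and 0.995, and biglycan was the higher in 8 of 9 and 4 of 9 samples. Biglycan made up 52.2% of the summed mean level of the 9 genes in the hypertensive-LVH group and 36.0% in the control group, and decorin 28.7% and 40.9%. These shares are descriptions of adjusted levels and were not tested.

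**Figure D3:**
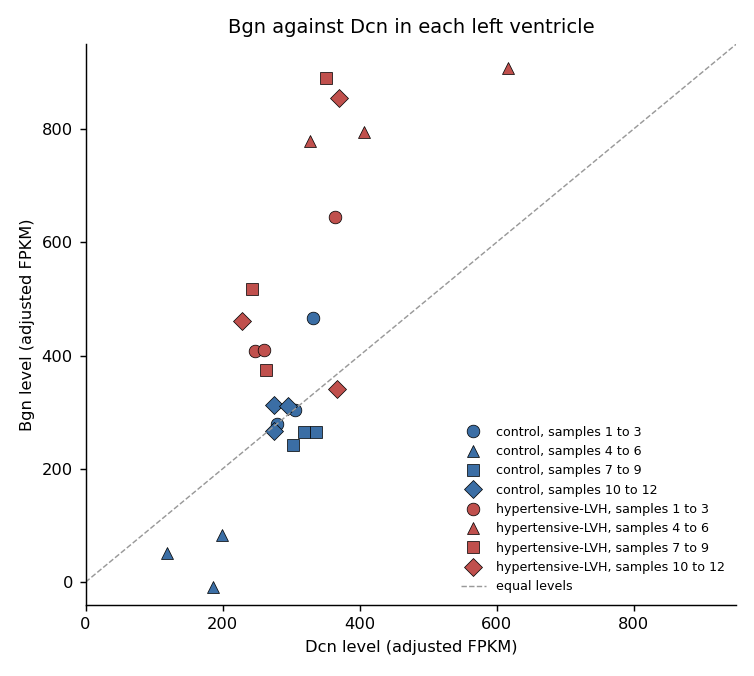
Each point is a sample, with the level of Dcn on the horizontal and of Bgn on the vertical axis, both in adjusted FPKM, colours for the groups and shapes for the sets. In the hypertensive-LVH group 11 of 12 points lie above the dashed line of equal levels, and control samples 4 to 6 lie far below it.

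Asporin, a relative of decorin and biglycan with an aspartate-rich stretch, binds collagen and TGF-β1. Its level was 10.3 to 52.8 FPKM in hypertensive-LVH samples (median 22.6) and 12.0 to 19.9 FPKM in control samples (median 15.6). Thus 10 of 12 hypertensive-LVH samples exceeded every control sample, while hypertensive-LVH sample 7 was the lowest of all 24. The means were 26.4 ± 11.6 and 16.0 ± 2.91 (SD, n = 12), and the log2 fold change was 0.59 ± 0.17 (adjusted p = 0.0107, limma). Asporin did not stand apart in control samples 4 to 6 as biglycan did, since these held 13.8, 13.9 and 12.0. Without that set the log2 fold change was 0.45 ± 0.20 and missed the threshold (adjusted p = 0.123). Without hypertensive-LVH sample 8 alone, the log2 fold change was 0.49 ± 0.15 (adjusted p = 0.0181, limma), below the limit of 0.5, so that asporin was then no DEG.

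Lumican is a keratan sulfate proteoglycan that binds collagen fibrils and keeps them thin and regularly spaced. The lowest and highest hypertensive-LVH samples held 32.5 and 123 FPKM (median 54.2), and those of the controls 1.09 and 44.4 FPKM (median 39.5). Of the hypertensive-LVH samples, 7 of 12 exceeded every control sample. The means were 59.3 ± 25.9 and 31.6 ± 15.4 (SD, n = 12), and the log2 fold change was 1.15 ± 0.41 (adjusted p = 0.0311, limma). In adjusted values, control samples 4 to 6 held 5.87, 13.8 and 1.09, and the other 9 control samples held a narrow range from 34.2 to 44.4. Without that set the log2 fold change was 0.26 ± 0.14 (adjusted p = 0.211), and 4 of 9 hypertensive-LVH samples still exceeded every control sample. The call was also lost without hypertensive-LVH sample 6 (adjusted p = 0.0568), control sample 4 (0.0575) or control sample 5 (0.0516).

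Fibromodulin (Fmod) binds collagen at the same site as lumican and takes part in its cross-linking. Hypertensive-LVH samples held 10.1 to 40.6 FPKM (median 14.7), and control samples -10.1 to 25.2 FPKM (median 14.5). The means of 20.3 ± 11.5 and 10.6 ± 10.2 (SD, n = 12) differed far more than these medians. The log2 fold change was 1.15 ± 0.50 (adjusted p = 0.0782, limma). Hypertensive-LVH samples 4 to 6 held 40.6, 38.0 and 35.5, above every other sample, and control samples 4 to 6 held -4.74, 1.00 and -10.1, below every other sample. Without them the log2 fold change was -0.12 ± 0.18, with 0 of 9 hypertensive-LVH samples above the highest control sample, which was control sample 2.

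Prelp, a leucine-rich repeat protein that links basement membranes to collagen, had the same shape. Its level was 24.8 to 94.9 FPKM in hypertensive-LVH samples and 2.26 to 62.9 FPKM in control samples. The hypertensive-LVH median of 39.8 lay below the control median of 44.4, although its mean of 52.7 ± 23.2 lay above 37.9 ± 18.6 (SD, n = 12). The log2 fold change of 0.71 ± 0.40 did not pass the test (adjusted p = 0.168, limma) and was -0.21 ± 0.14 without samples 4 to 6 (adjusted p = 0.301).

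Osteoglycin (Ogn), also called mimecan, binds collagen and has been studied in heart growth. It was the least changed of the 9 genes. Its means were 39.2 ± 10.8 and 34.6 ± 5.38 (SD, n = 12), with medians of 34.9 and 36.2, and the log2 fold change was 0.15 ± 0.12 (adjusted p = 0.340, 95% interval -0.10 to 0.39, limma). The 3 hypertensive-LVH samples above every control sample were 1, 6 and 8, at 49.7, 60.6 and 56.3.

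Podocan (Podn) is a leucine-rich repeat protein that binds type I collagen. It was set by single samples. The level was 10.1 to 47.6 FPKM in hypertensive-LVH samples (median 15.9), and 5.21 to 60.4 FPKM in control samples (median 13.5). The highest value of all, 60.4, was in control sample 2, and the next control sample held 21.8. The log2 fold change was 0.38 ± 0.27 (adjusted p = 0.294, limma) and 0.57 ± 0.22 without control sample 2 (adjusted p = 0.0408). Control sample 2 also had the highest summed level of 3 atrial markers (Myl7, Myl4 and Sln), at 3153, and of 4 epicardial markers (Msln, Upk3b, Upk1b and Wt1), at 47.1. Hypertensive-LVH sample 6, second for podocan at 47.6, was second for the atrial markers at 2303. For the epicardial markers it had rank 9 of 24 at 15.9, and control sample 4 was second at 34.9. In the other 22 samples the atrial sum was at most 624. The sum of 3 valve and cartilage markers (Sox9, Cytl1 and Col2a1) was highest in hypertensive-LVH sample 6, at 39.6. Control sample 2 came next at 31.0, and hypertensive-LVH sample 4 followed at 25.4. These are sums of adjusted values, with the same limit between sets, and the part of atrial, epicardial or valve tissue in them was not tested. Without control sample 2, 5 of the 9 genes were DEGs, with fibromodulin (log2 fold change 1.30 ± 0.50, adjusted p = 0.0458) and podocan added, against 6.98% of all genes.

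Versican was the least abundant of the 9 genes. Hypertensive-LVH samples lay between 6.17 and 15.9 FPKM (median 6.91), and control samples between 3.47 and 8.46 FPKM (median 6.06). All 12 hypertensive-LVH samples lay above the control median, and 5 of 12 lay above every control sample. The means were 8.23 ± 2.79 and 5.84 ± 1.47 (SD, n = 12), and the log2 fold change of 0.42 ± 0.14 passed the adjusted p (0.0207, limma) but not the limit of 0.5. Control samples 4 to 6 were the 3 lowest, at 3.66, 4.22 and 3.47, and without that set the log2 fold change was 0.16 ± 0.09 (adjusted p = 0.242).

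The adjusted levels within a group had a steep order, under the same limit. In the control group decorin and biglycan were highest at 269 and 237, followed by Prelp at 37.9, Ogn at 34.6, Lum at 31.6, Aspn at 16.0, Podn at 16.0, Fmod at 10.6 and Vcan at 5.84 (means). Neighbours from Prelp to Lum could not be set apart, since Prelp exceeded Ogn in 8 of 12 and Ogn exceeded Lum in 5 of 12 control samples. That order depended on control samples 4 to 6. Without them Prelp (47.2) exceeded Lum (39.8) in 8 of 9 samples, and Lum exceeded Ogn (36.2) in 7 of 9. In the hypertensive-LVH group lumican took the third place behind biglycan and decorin, above Prelp in 9 of 12 samples. Fibromodulin and podocan could not be set apart there, with Fmod the higher in 7 of 12 samples. The sum of the 9 genes was 1177 ± 381 in the hypertensive-LVH group and 658 ± 249 in the control group (SD, n = 12), and 1037 ± 297 and 785 ± 105 without samples 4 to 6 (SD, n = 9).

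The differences within each set were also recovered from before the adjustment, from the spacing of 0.01 FPKM that the values had kept. The offset of a set could not be recovered, so these are differences between the groups of a set and not levels. For biglycan the hypertensive-LVH mean exceeded the control mean by 42.5, 830, 362 and 248 FPKM in the 4 sets, in the order of the sample numbers. For asporin the differences were 5.43, 18.6, 18.7 and 6.11 FPKM. For lumican they were 1.41, 96.9, 20.3 and 15.1 FPKM. These 3 genes and osteoglycin (4.02, 14.3, 0.387 and 1.61 FPKM) were higher in all 4 sets, and 4 of 9 compares with 21.8% of the 13479 genes recovered.

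Samples 4 to 6 gave a different picture for decorin, fibromodulin and Prelp. Decorin differed by -35.5, 372, 14.0 and 58.9 FPKM. Fibromodulin differed by -4.74, 52.0, 2.55 and 3.28 FPKM. Prelp differed by -8.30, 108, 1.74 and 2.72 FPKM. Each of these 3 genes had a difference in samples 4 to 6 many times that of any other set. Versican was near 0 in samples 1 to 3 (-0.02 FPKM) and higher in the others (6.64, 3.22 and 1.46 FPKM). Podocan differed by -20.7 FPKM in samples 1 to 3, the set of control sample 2, and by 10.6 FPKM there when that sample was left out.

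An exact two-sided permutation of the samples within the sets, over all 160000 relabelings, was made on these recovered values. The mean difference had p = 7.5e-04 for biglycan, 5e-05 for asporin, 0.00236 for lumican and 0.00175 for versican. For decorin p was 0.0329, for fibromodulin 0.0449, for Prelp 0.0602, for osteoglycin 0.19 and for podocan 0.999. These p-values are not adjusted for the number of genes. With samples 4 to 6 left out, the exact permutation p was 0.015 for biglycan (mean difference 217 FPKM), 0.001 for asporin (10.1 FPKM), 0.0473 for lumican (12.3 FPKM) and 0.0335 for versican (1.56 FPKM). The other 5 genes had p from 0.574 to 0.969. On the deposited values without that set, the unadjusted limma p was 0.000228 for biglycan, 0.0376 for asporin, 0.0843 for lumican and 0.104 for versican.

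**Figure D4:**
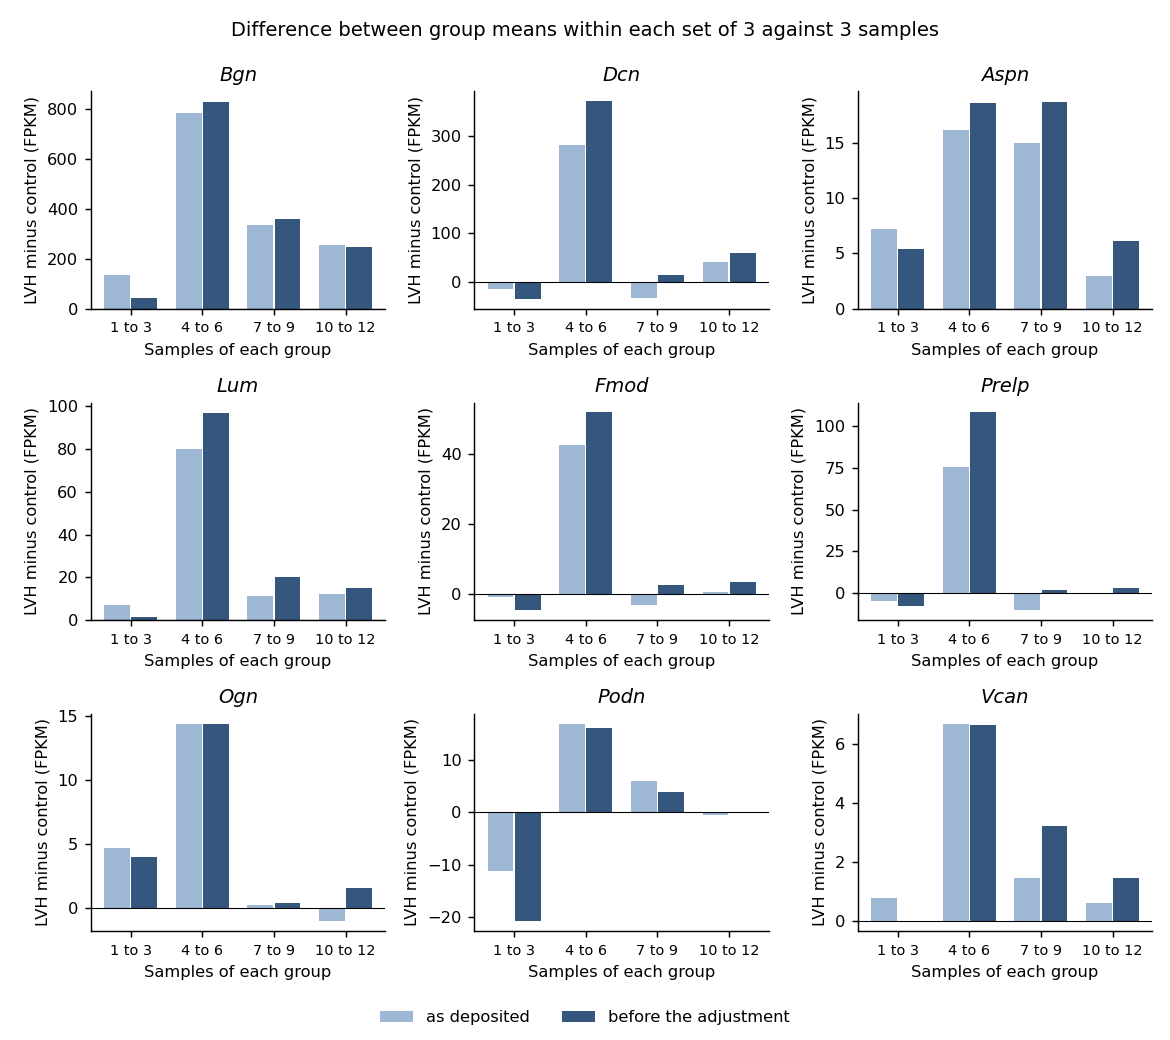
Each panel is a gene, with the difference between the mean of 3 hypertensive-LVH and 3 control samples in FPKM on the vertical axis, for the values as deposited (light) and as recovered from before the adjustment (dark), in each of the 4 sets. The bars of samples 4 to 6 are the tallest for every gene other than Aspn and Podn, and those of Bgn, Lum and Aspn are above 0 in all 4 sets.

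The genes varied together among mice of the same group and set. After the mean of each group in each set was removed, 34 of the 36 pairs had a positive Pearson correlation of log2(FPKM + 1) over the 24 samples, with a median of 0.46. The points share 3 samples per group and set, tissue composition and library scaling, and no test was made. The share of positive pairs over all genes was not derived, so the count is not shown to be particular to these genes. The closest pair was Ogn and Aspn at 0.86, which lie on chromosome 13 with Omd between them. It was followed by Dcn and Ogn at 0.79, Dcn and Vcan at 0.77 and Bgn and Prelp at 0.77. Dcn and Lum, neighbours on chromosome 10, had 0.71, and Fmod and Prelp, neighbours on chromosome 1, had 0.73. The pairs of biglycan were uneven with all samples, from -0.08 with Ogn, -0.00 with Dcn and 0.25 with Vcan to 0.46 with Fmod and 0.77 with Prelp. The negative value of control sample 4 had counted as 0. In the 18 samples outside the set 4 to 6, all 36 pairs were positive, and biglycan had 0.60 with Ogn, 0.58 with Dcn and 0.92 with Vcan.

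**Figure D5:**
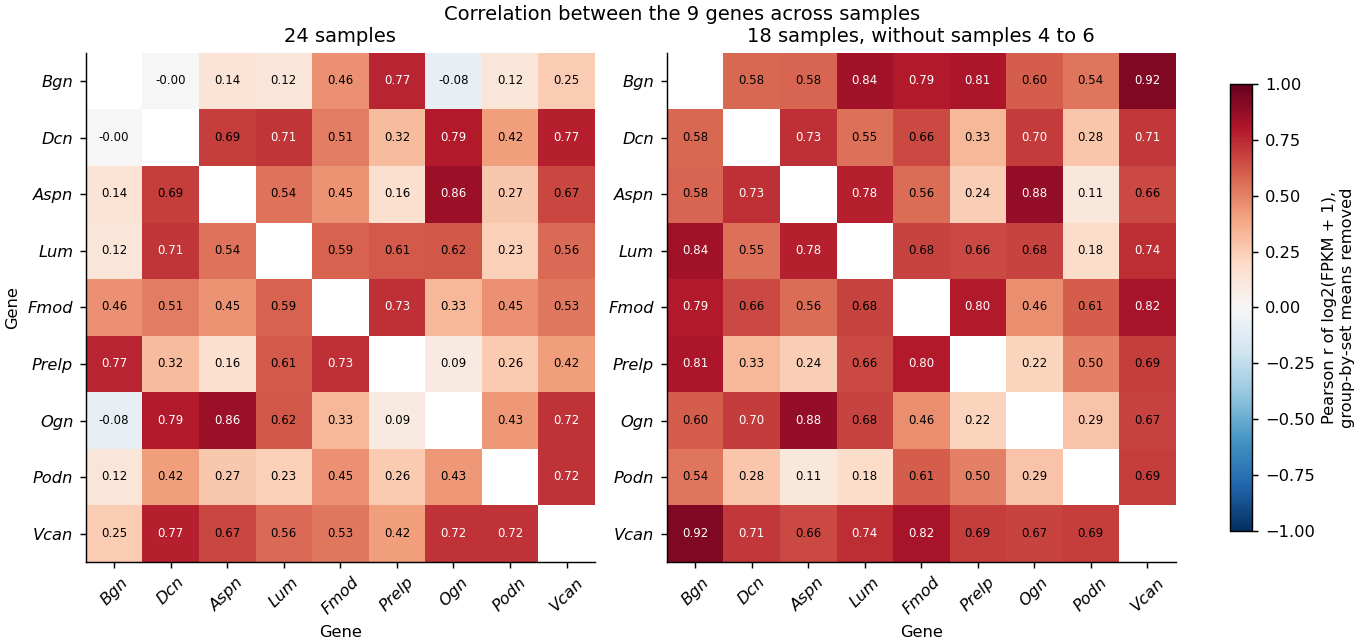
Both panels show, for each pair of genes, the Pearson correlation of log2(FPKM + 1) after the mean of each group in each set was removed, on a colour scale from -1 to 1, over 24 samples on the left and over the 18 samples outside the set 4 to 6 on the right. The row of Bgn changes most between the panels, from 0.25 to 0.92 with Vcan.

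Among 11456 other genes with a mean of at least 1, those most like each of the 9 genes were named by the same measure over 24 samples. Biglycan was closest to Thbs1 (r = 0.98), the matricellular protein thrombospondin-1, then to Ctgf (0.97), a matricellular growth factor modulator, and to Mmp2 (0.91), a gelatinase. These were 0.91, 0.70 and 0.81 in the 18 samples outside the set 4 to 6. Lumican was closest to Dpt (0.88), the decorin-binding dermatopontin, and then to Abcg1 and Csrp2. Fibromodulin was closest to Ptgs1 (0.93), Ptgfrn (0.90) and the elastin gene Eln (0.90), and Prelp to Sec24d (0.94), a subunit of the coat that carries procollagen from the endoplasmic reticulum, to Serpinf1 (0.94) and to the procollagen protease Adamts2 (0.90). Asporin was closest to Ncapg2 (0.92), Ncoa7 (0.91) and the periostin gene Postn (0.90), and osteoglycin to Ncoa7 (0.92), Ctbs (0.91) and Actr2 (0.91). Decorin was closest to Ssr3 (0.94), Rab11a (0.93) and Aldh1a1 (0.92), podocan to Plekha7 (0.94), Camk1d (0.93) and Psd3 (0.93), and versican to Colec12 (0.94), Scara3 (0.92) and Gcnt1 (0.91).

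Other genes of proteoglycan biology were taken as whole lists. Of 90 tested genes in 8 lists, 24 were DEGs that rose and 0 were DEGs that fell (4.52% and 1.4% of all genes in limma), with a median log2 fold change of 0.23 against 0.05 for all genes. With samples 4 to 6 left out, 8 rose, against 2.31% of all genes, and 1 fell, against 230 of all 14004 genes tested.

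Among 19 binding partners of the 9 proteins, 11 were DEGs, all higher, and the median log2 fold change was 0.66. The fibrillar collagen genes Col1a1 (2.77 ± 0.88, adjusted p = 0.0180), Col3a1 (2.63 ± 0.98, 0.0418) and Col1a2 (2.48 ± 0.87, 0.0296) were highest, followed by elastin (Eln, 2.35 ± 0.66, 0.00843) and fibronectin (Fn1, 2.08 ± 0.69, 0.0233), all from limma. Tgfb2 (0.66) and Tgfb3 (0.95), growth factors that decorin and biglycan bind, were DEGs as well, and Tgfb1 (0.44) passed the adjusted p. Both biglycan receptors passed the adjusted p, Tlr2 at 0.42 and Tlr4 at 0.20, without being DEGs. Without samples 4 to 6, 6 of 19 were DEGs, which were Col1a1 (0.77), Eln (0.88), Tgfb2 (0.50), Tgfb3 (0.51), Tnc (1.45) and Cd44 (0.73).

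Proteases that cleave these proteins had 7 DEGs of 15, all higher. Among them were the stromelysin gene Mmp3 (1.19 ± 0.34, adjusted p = 0.00868), Mmp14 (1.09 ± 0.24, 0.00121) and Mmp2 (1.03 ± 0.37, 0.0343), with Adamts8 (0.90 ± 0.31, 0.0282) and Bmp1 (0.71 ± 0.18, 0.00344), the procollagen protease that also processes probiglycan (all limma). Of the versican-cleaving enzymes, Adamts4 (0.61) and Adamts15 (0.56) were DEGs, whereas Adamts1 (0.39) and Adamts5 (0.30) passed only the adjusted p. Adamts9 (0.19, adjusted p = 0.147) and Adamts20 (0.05, 0.341) did not pass it. Htra1, a serine protease, and Tll2, a relative of Bmp1, went the other way at -0.45 ± 0.05 (adjusted p = 8.84e-07) and -0.12 ± 0.04 (0.0286) in limma, and neither reached the limit of 0.5. Without samples 4 to 6, Adamts4 and Mmp14 were the DEGs of this list.

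The enzymes that build the sugar chains stand beside the 20.9% of all genes that passed the adjusted p and were higher. Of 7 enzymes of the common linkage region, 0 passed the adjusted p in limma (1 had an unadjusted p under 0.05, as in a rank-sum test), and their median log2 fold change was -0.04. Of 15 enzymes of chondroitin and dermatan sulfate, 4 passed it, all higher. They were the polymerase subunits Chpf (0.53 ± 0.14, adjusted p = 0.00441, the only DEG), Chpf2 (0.49) and Chsy1 (0.48), and the sulfotransferase Chst11 (0.37). Of 6 enzymes of keratan sulfate, B4galt1 (0.25) and Chst1 (0.50) passed the adjusted p, both higher. With samples 4 to 6 left out, Chpf had 0.24 (adjusted p = 0.122), Chpf2 0.22 (0.157), Chsy1 0.19 (0.257), Chst11 0.18 (0.166) and Chst1 0.35 (0.0750) in limma, and of these 6 enzymes B4galt1 alone passed, at 0.30 (0.00923).

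Of 8 other tested genes of the small leucine-rich family, tsukushi (Tsku, 0.63 ± 0.18, adjusted p = 0.00928, limma) was the only DEG with all samples and had 0.32 (adjusted p = 0.209) without samples 4 to 6. Chadl passed the adjusted p in the other direction at -0.19 without being a DEG. Omd and Ecm2, which lie in the cluster with Aspn and Ogn, had 0.20 ± 0.13 and 0.19 ± 0.13 and did not pass (adjusted p = 0.221 and 0.239). Of 3 tested genes related to versican and its link proteins, Acan (aggrecan) passed the adjusted p at 0.36 ± 0.08, at mean levels of 0.50 and 0.11 FPKM. Of 17 other proteoglycans, 4 were DEGs, which were Prg4 (lubricin, 1.30 ± 0.46, adjusted p = 0.0299), Sdc1 (0.69 ± 0.21, 0.0136), Gpc6 (0.54 ± 0.15, 0.00792) and Spock2 (0.51 ± 0.19, 0.0437), all higher. With all samples, 9 of these 17 genes passed the adjusted p, all higher. Without samples 4 to 6, 0 of the 17 were DEGs in limma, and 2 had an unadjusted p under 0.05. Of those, Srgn passed the adjusted p at 0.28 (0.0283, limma). In the same fit Chad, a cartilage leucine-rich protein, was the DEG that fell (-0.52 ± 0.15, adjusted p = 0.0167). With all samples Chad had the other sign, at 0.30 ± 0.34, and did not pass (adjusted p = 0.520, limma).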

How the data were processed

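RNA selected with oligo(dT) from 24 left ventricles was sequenced in pairs of reads by the authors, and the submitters' processing notes name HISAT, Bowtie2 and RSEM. The genome build and annotation are not given in the sources used here. The authors deposited 1 value per gene and sample, named FPKM (other units or counts were not used here). The values were adjusted in 4 sets of samples, a step the methods do not state, found from at least 100 genes tied in every pair of samples of a set. The study's methods name more mice per group than the 12 analysed here. Sums of the values were 460715 to 515185 in the hypertensive-LVH group and 482319 to 567727 in the control group. The number of fragments behind a value was not derived, so no counting error is given.

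Negative values were set to 0 for the log2 scale and kept in printed levels. Genes whose mean was 0.1 or more were tested with limma 3.58.1 (R 4.3.3, intensity trend) on log2(FPKM + 1), which understates the changes of low genes, with Benjamini-Hochberg adjustment. Other work used Python 3.11.15, numpy 2.4.6, pandas 2.3.3 and scipy 1.17.1. Values before the adjustment were recovered for 96.1% of tested genes, under an assumed model of the adjustment. In that model a group difference was kept for each gene, and the rest was rescaled and shifted within each set. The main limma fit made no allowance for such a step, so its p-values may be too small. The scripts were tested on simulated data. All tests were two-sided.

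The 9 genes and all lists were chosen with earlier results of these data known. Named genes were the 9, up to 5 DEGs with the largest fold change per list, and the 3 genes most like each of the 9. Other genes of the lists were named after their values were seen. Alternatives were quantile normalization or median-ratio scaling, a pseudocount of 0.1, a minimum mean of 1 or none, limma without the trend, the Wilcoxon rank-sum test, permutation tests (100000 resamples), the replicate number as a block, the set as a term, and leaving out each set or sample. The tests before the adjustment without samples 4 to 6 or control sample 2, and the correlations without samples 4 to 6, were added after the data were seen. Same-numbered samples of the groups were not taken as pairs.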

Additional observations from a re-analysis of the deposited data

Results flagged for a closer look

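The difference between the groups was unequal among the 4 sets of samples for 5 of the 9 genes, by the interaction of set and group in limma (Benjamini-Hochberg adjusted over all tested genes), against 7.49% of all genes. The adjusted p of the interaction was 4.18e-07 for Fmod, 0.00135 for Prelp, 0.00231 for Lum, 0.0107 for Dcn and 0.0429 for Bgn. In samples 4 to 6 alone the log2 fold changes of these genes were 4.95, 3.48, 3.83, 1.40 and 5.66. In samples 1 to 3 they were -0.00, -0.15, 0.20, -0.09 and 0.48, in samples 7 to 9 they were -0.34, -0.34, 0.28, -0.18 and 1.11, and in samples 10 to 12 they were -0.02, -0.15, 0.31, 0.16 and 0.79. In samples 4 to 6, the fold changes of Fmod and Bgn rest on control values below 0 that counted as 0. These were -4.74 and -10.1 for Fmod and -7.75 for Bgn, whose fold change had an SE of 1.38. The size of these fold changes depends on that step. Those of Lum and Prelp rest on low adjusted control values (1.09 to 13.8 and 2.26 to 22.9 FPKM), so that their size depends on a set offset that could not be recovered. The interaction was tested on the same adjusted values. Vcan (0.0779), Podn (0.510), Ogn (0.512) and Aspn (0.568) had no interaction past the threshold. With a pseudocount of 0.1 the interaction of Bgn had an adjusted p of 0.102, and 4 of the 9 genes passed. Without samples 4 to 6, the interaction passed the threshold for 0 of the 9 genes in limma, against 0.0214% of all genes, and 0 of the 9 had an unadjusted p under 0.05.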

How the results depend on the processing

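Of the 387 results of the 9 genes under an alternative, 360 kept their direction and their side of the threshold, and 6 reversed. Without samples 4 to 6, the log2 fold changes of Dcn (-0.037), Fmod (-0.12) and Prelp (-0.21) reversed. In that fit 1 of the 9 genes was a DEG, 9 list genes were DEGs and 553 genes were DEGs in all. There 1 of the 9 passed the adjusted p, against 2810 of all 14004 genes, and 0 of the 9 had an interaction. Before the adjustment Podn reversed (-0.234 FPKM, and -5.63 FPKM without samples 4 to 6), and so did Prelp without samples 4 to 6 (-1.28 FPKM). With the replicate number as a block, 1 of the 9 was a DEG (5.1% of all genes were DEGs), with 15 list genes. The same fit had 1 of the 9 past the adjusted p, against 2824 of all 14026 genes. Same-numbered samples correlated from -0.557 to -0.001, and 0 of 12 correlated best with their own number. Bgn missed the threshold with the block (adjusted p = 0.0522, limma), a pseudocount of 0.1 (0.0544) and without samples 7 to 9 (0.0523). Lum (0.0943) and Vcan (0.0857) missed it with the block. A pseudocount of 0.1 gave 1489 DEGs, and quantile normalization gave 461 higher and 275 lower, against 634 and 197. Leaving out 1 sample at a time gave 2 to 5 of the 9 genes as DEGs, with 16 to 28 list genes and 715 to 979 DEGs in all. The 5 were found without control replicate 2, and Aspn was lost (0.49) without hypertensive-LVH replicate 8. Of the 9 genes 3 to 6 passed the adjusted p in these fits, beside 4038 to 5160 of all genes. The causes were not tested.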
